A study of Mus musculus with 18 samples.

Results

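The comparison described here is that of soleus with extensor digitorum longus (EDL) in mice flown for 30 days aboard the biosatellite Bion M1. Its members are the 3 arrays titled BF SOL and the 3 titled BF EDL, which are 6 of the 18 arrays of the series, and the quantity followed is the log2 signal of soleus minus that of EDL for every gene. The other arrays are 3 soleus and 3 EDL of each of 2 groups kept on the ground. The question was which differences between a slow and a fast muscle were still measured after flight, and which were smaller, larger or turned round when set beside the same difference in the ground groups.

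All mice were adult males of strain C57/BL6 as the samples are labelled, while the design text of the series names C57BL/N6. BF (Bion Flown) mice lived for 30 days in the habitat in orbit, BG (Bion Ground) mice in a copy of that habitat on Earth, and FC (Flight Control) mice in a standard animal facility. BF and BG mice were given paste food and FC mice standard chow, and only BF mice went through launch, landing and transport before dissection. Flight and those steps therefore cannot be told apart here. Whether a soleus and an EDL array of the same number came from one animal is not given in the labels. Each array holds RNA of 1 muscle sample, and the study describes 3 muscles of each type per group. The p-values therefore measure the spread between these muscles.

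The soleus is a postural calf muscle in which slow, oxidative type 1 fibres are common, and the EDL is a muscle of the shin made almost wholly of fast fibres. Slow and fast fibres use different genes for the same parts of the contractile apparatus: the motor myosin heavy chain, its light chains, the 3 troponins and tropomyosin on the thin filament, and the pump, buffers and regulators that move calcium in and out of the sarcoplasmic reticulum. Slow fibres burn fatty acids in mitochondria, fast fibres break down glycogen, and unloading a postural muscle is known to shift its fibres from slow towards fast.

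The muscle labels were borne out by the slow markers in every library. Over 9 soleus and 9 EDL arrays, the lowest soleus signal of Myh7 (slow myosin heavy chain) was 12.85 and the highest EDL signal 10.75. For Tnni1 (slow troponin I) these were 11.88 and 9.47. Among the BF soleus arrays, replicate 2 stood apart: its distance to the BF EDL arrays (root of the summed squared log2 differences over all probe sets) ran from 96.4 to 100.1, against 69.3 to 71.8 for replicate 1 and 54.9 to 60.2 for replicate 3. The mean distance between soleus and EDL was 75.0 in BF, 78.8 in BG and 73.4 in FC, while the mean distance among soleus arrays was 59.5 in BF, 38.4 in BG and 39.5 in FC. Flown soleus was thus the most variable group of soleus arrays, and counts that turn on replicate 2 are given with and without it.

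Of 12393 genes, 304 were called between soleus and EDL of flown mice, which is 2.45% of those tested. A gene was called when limma gave it an adjusted p under 0.05 and its signal differed over 2-fold, and was said to have passed on the adjusted p alone. Soleus was the higher muscle for 231 of these genes (1.86%) and EDL for 73 (0.589%). In BG mice 474 genes were called (3.82%), 255 higher in soleus (2.06%) and 219 higher in EDL (1.77%), and in FC mice 438 (3.53%), 201 (1.62%) and 237 (1.91%). Of the BF calls 75.99% were higher in soleus. That lean came with the 2-fold threshold: on the adjusted p alone 717 genes were higher in BF soleus (5.79%) and 822 in BF EDL (6.63%), so that 46.59% were higher in soleus, against 48.79% in BG and 48.79% in FC. For 282 of the 304 genes the 3 soleus arrays lay wholly to one side of the 3 EDL arrays, against 26.8% of all genes. The same arrays chose the 304, so this separation is a description and no support for the calls. Without BF SOL replicate 2 the calls higher in soleus and in EDL were 113 and 15, and without BF SOL replicate 3 they were 374 and 152. A fit on the 6 BF arrays alone called 14 genes, all higher in soleus. The SEs and adjusted p-values below use a spread pooled over all 6 groups, while flown soleus was the most variable soleus group. Among genes described below, limma on the 6 BF arrays alone gave adjusted p = 0.0546 for Cd68, 0.0744 for Hspb8 and 0.0893 for Casq2. Myl3 (0.000162) and Tpm3 (0.00044) still passed there.

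The muscle difference itself was then compared between conditions, as the difference in BF minus that in BG or in FC. In BF minus BG 370 genes were called (2.99%), 182 in the direction of soleus (1.47%) and 188 in that of EDL (1.52%). When each array was centred on its median, the calls in the direction of soleus made up 35.88% of 393, against 49.19% of the 370. In BF minus FC 169 genes were called (1.36%), 84 (0.678%) and 85 (0.686%). In FC minus BG limma called 0 genes and 0 passed (0%), while 1976 genes had an unadjusted p under 0.05. Both differences share the BF arrays. Between BF and BG, 434 genes were called in soleus (3.5%) and 20 in EDL (0.161%).

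Genes called in FC, whose arrays have no part in the BF minus BG difference, were read in the other conditions. Of 201 genes higher in FC soleus, 140 (69.65%) were called the same way in BG and 60 (29.85%) in BF, where 175 still had the same sign. Their median difference was 1.33 in FC, 1.34 in BG and 0.55 in BF (log2). Of 237 genes higher in FC EDL, 152 (64.14%) were called the same way in BG and 36 (15.19%) in BF, and their median difference was -1.35 in FC, -1.27 in BG and -0.63 in BF. The median over all genes was 0.0045 in BF, -0.06 in BG and 0.03 in FC. The BF difference was smaller than the BG one, with an adjusted p under 0.05, for 73 of the soleus genes (36.32%) and 66 of the EDL genes (27.85%), and larger for 3 and 0. Chosen in BG instead, 78 of 255 soleus genes (30.59%) and 31 of 219 EDL genes (14.16%) were called in BF, and 51 (20%) and 35 (15.98%) were smaller in BF than in FC. The share of FC-chosen EDL genes called in BF was 3.35% without BF SOL replicate 2 and 26.05% without BF SOL replicate 1, the share that was smaller in BF was 51.88% and 15.97%, and both shares moved with the BF soleus array left out. On the adjusted p alone the order of the muscles turned, with 19.76% of FC-chosen soleus genes and 33.14% of FC-chosen EDL genes passing the same way in BF.

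**Figure D1:**
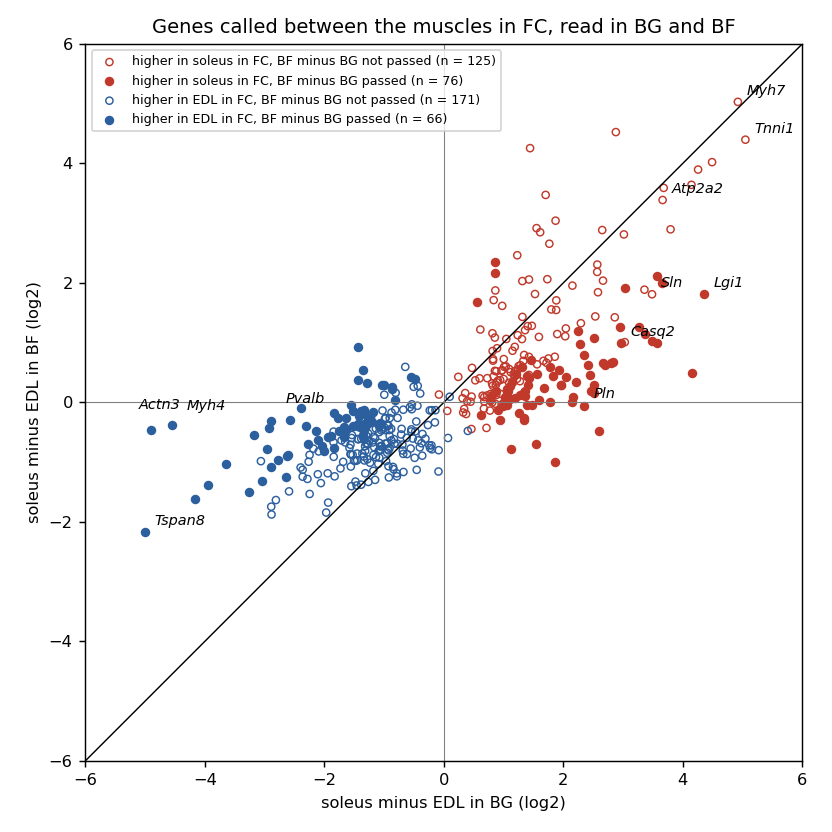
The log2 difference of soleus minus EDL in BF (y axis) against that in BG (x axis) for the 438 genes called between the muscles in FC. Red points were higher in FC soleus and blue points in FC EDL, filled where BF minus BG passed the adjusted p, and the diagonal marks equal differences. Slow contractile genes such as Myh7 and Tnni1 lie near the diagonal, whereas Actn3, Myh4, Pvalb and Pln lie near 0 on the y axis.

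The muscle difference of Tnnc1 (slow troponin C) in BF was about that of the ground groups. The soleus excess of Pln (phospholamban, the brake on the slow calcium pump) on the ground was not measured in BF. The EDL excess of Myh4 (the fastest myosin heavy chain) was smaller in BF than in BG. The 300 bases around the start sites of these 3 genes with contrasting outcomes are shown. They are RefSeq sequences of mouse build GRCm38.p6, from 250 bases before to 50 after the start, at chr14:31208062-31208361, plus strand for Tnnc1, chr10:53337436-53337735, plus strand for Pln and chr11:67237562-67237861, plus strand for Myh4. Capitals mark E-boxes (CANNTG, which myogenic factors bind), MCAT elements (CATTCC, bound by TEAD factors) and the MEF2 box, on either strand.
Tnnc1: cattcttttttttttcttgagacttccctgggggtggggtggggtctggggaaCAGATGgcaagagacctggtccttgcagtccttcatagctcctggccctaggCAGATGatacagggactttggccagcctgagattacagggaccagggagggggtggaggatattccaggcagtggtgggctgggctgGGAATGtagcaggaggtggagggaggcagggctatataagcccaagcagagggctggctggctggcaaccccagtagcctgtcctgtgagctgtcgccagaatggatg
Pln: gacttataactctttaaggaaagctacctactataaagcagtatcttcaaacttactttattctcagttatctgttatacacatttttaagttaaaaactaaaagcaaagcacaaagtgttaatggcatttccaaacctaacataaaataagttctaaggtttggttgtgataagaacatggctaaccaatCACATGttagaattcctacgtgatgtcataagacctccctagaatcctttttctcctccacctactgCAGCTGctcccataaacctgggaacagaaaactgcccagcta
Myh4: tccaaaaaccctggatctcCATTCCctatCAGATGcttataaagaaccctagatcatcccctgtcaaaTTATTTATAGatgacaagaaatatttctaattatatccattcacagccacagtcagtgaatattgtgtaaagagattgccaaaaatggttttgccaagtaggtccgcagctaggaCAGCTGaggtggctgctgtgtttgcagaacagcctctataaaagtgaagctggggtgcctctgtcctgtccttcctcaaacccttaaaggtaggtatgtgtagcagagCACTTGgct

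The Tnnc1 window held 2 E-boxes and 1 MCAT element, the Pln window 2 E-boxes, and the Myh4 window 3 E-boxes, 1 MCAT element and 1 MEF2 box. Of 27025 promoter windows of the same length, 72.1% held an E-box, 14.7% an MCAT element and 3.29% a MEF2 box. Among the slow contractile genes 13 of 14 windows held an E-box, 3 an MCAT element and 1 a MEF2 box, and among the fast ones with a window 5, 4 and 3 of 8. These are matches of letters and not measured binding sites, and a link between them and the muscle differences was not tested.

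Slow contractile proteins remained much higher in soleus after flight. Of 14 measured, 10 passed in BF and 9 were called, all higher in soleus, against 5.79% of all genes that passed higher. Their median difference was 2.85 in BF, 3.19 in BG and 3.28 in FC (log2). By limma 0 of 14 passed in BF minus BG or in BF minus FC, where 3 had an unadjusted p under 0.05 in each. That count depends on the pooled spread. When limma was fitted on only the arrays compared, Myoz2 (-2.02, adjusted p = 0.00478) and Lmod2 (-1.09, adjusted p = 0.0407) passed in BF minus BG, both towards EDL.

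Myh7, the motor of slow fibres, measured 12.85, 13.31 and 12.92 in the 3 BF soleus arrays and 9.53, 8.90 and 5.55 in the BF EDL arrays. The soleus arrays were close to each other, the EDL arrays spread over about 4 log2 units, and the groups did not overlap. The difference was 5.03 ± 0.95 (SE; 32.7-fold, adjusted p = 0.00448), beside 4.92 in BG and 4.53 in FC. BF minus BG was 0.11 ± 1.34 (adjusted p = 0.967), so the error leaves room for a change of more than 2-fold either way.

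Tnni1, which holds the thin filament off in slow fibres, measured 12.08, 12.75 and 11.88 in BF soleus and 8.56, 8.04 and 6.92 in BF EDL, a difference of 4.40 ± 0.69 (21.1-fold, adjusted p = 0.00153). Tnnc1, the calcium sensor of slow and cardiac muscle, measured 13.07, 13.54 and 13.12 against 10.18, 9.78 and 8.08 and differed by 3.90 ± 0.77 (adjusted p = 0.00589). The third slow troponin, Tnnt1, ties the complex to tropomyosin. It differed by 4.02 in BF, 4.49 in BG and 4.71 in FC. All 3 slow troponin genes were therefore called in flown mice with no overlap of arrays.

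The remaining slow genes called in BF were the essential light chain Myl3 (3.64, with 4.15 in BG and 4.46 in FC), the slow tropomyosin Tpm3 (3.59, 3.68 and 4.12), the Z-disc LIM protein Csrp3 (2.88, 2.65 and 2.91), the stretch-responsive ankyrin repeat protein Ankrd2 (2.81, 3.02 and 3.21) and Pdlim1 (2.18, 2.57 and 2.78). Actn2, the alpha-actinin of all fibre types, passed without reaching 2-fold (0.79). Without BF SOL replicate 2, 8 of the 14 slow genes passed. Csrp3, at 2.74 (adjusted p = 0.0936), and Actn2, at 0.68 (adjusted p = 0.121), then did not. Slow genes that did not pass in BF included the regulatory light chain Myl2 and Myoz2, a calcineurin-binding Z-disc protein. Myl2 measured 13.34, 13.71 and 13.33 in soleus and 11.49, 11.68 and 11.54 in EDL without overlap. The BF difference was 1.89 ± 0.67 (adjusted p = 0.0756) for Myl2 and 1.01 ± 0.47 (adjusted p = 0.174) for Myoz2. With limma on the BF arrays alone Myl2 passed (1.89, adjusted p = 0.00258), while Myoz2 did not (adjusted p = 0.0928). Both had differences above 3 on the log2 scale in BG and FC.

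Fast contractile proteins did not pass between the flown muscles. Of 13 measured, 0 passed in BF by limma in either direction, against 6 that passed as higher in EDL in BG (8.71% of all genes) and 10 in FC (8.4%). The unadjusted p was under 0.05 for 4 of the 13 in BF. These counts are of the brightest probe set of each gene. A dimmer probe set of Myoz1 (-1.39, adjusted p = 0.0193) and one of Tnni2 (-0.91, adjusted p = 0.0257) passed as higher in BF EDL. In BF minus BG 4 passed, all towards soleus, against 4.21% of all genes, and 3 passed in BF minus FC (0.855%).

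Actn3, the alpha-actinin of fast fibres, measured 13.68, 12.75 and 13.55 in BF soleus and 13.76, 13.92 and 13.68 in BF EDL. In BG it measured 8.07, 10.54 and 8.07 in soleus and 13.66, 13.92 and 13.80 in EDL, so that flown soleus lay above every BG soleus array while the EDL groups overlapped. The muscle difference was -0.46 ± 0.50 in BF (adjusted p = 0.59), -4.90 in BG and -4.14 in FC. BF minus BG was 4.44 ± 0.71 (adjusted p = 0.00281), and the soleus itself was 21.6-fold higher in BF than in BG (adjusted p = 2.95e-05).

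Myh4, the myosin of the fastest fibres, showed the same picture with a wider spread. It measured 13.96, 13.41 and 13.95 in BF soleus and 14.12, 14.26 and 14.07 in BF EDL, against 7.68, 12.15 and 8.71 and 14.12, 14.06 and 14.02 in BG. BG soleus replicate 2 was thus far above the other 2 BG soleus arrays. The difference was -0.38 in BF, -4.55 in BG and -4.45 in FC, with adjusted p = 0.0305 in BF minus BG and 0.0744 in BF minus FC.

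Pvalb, the calcium buffer parvalbumin of fast fibres, measured 14.03, 13.28 and 14.04 in BF soleus and 14.14, 13.95 and 14.20 in BF EDL, and its difference of -0.31 in BF stood beside -2.89 in BG and -2.51 in FC (BF minus BG 2.58 ± 0.41, adjusted p = 0.00251). Myoz1, the fast counterpart of Myoz2, differed by -0.40, -1.53 and -1.49 in the same order. Fast genes that were already near the top of the scale in both muscles, such as Tnnc2, Tnni2, Myl1 and Mylpf, differed by between -0.22 and -0.11 in BF. The highest value on any array was 14.53, and signals near it have little room to differ.

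**Figure D2:**
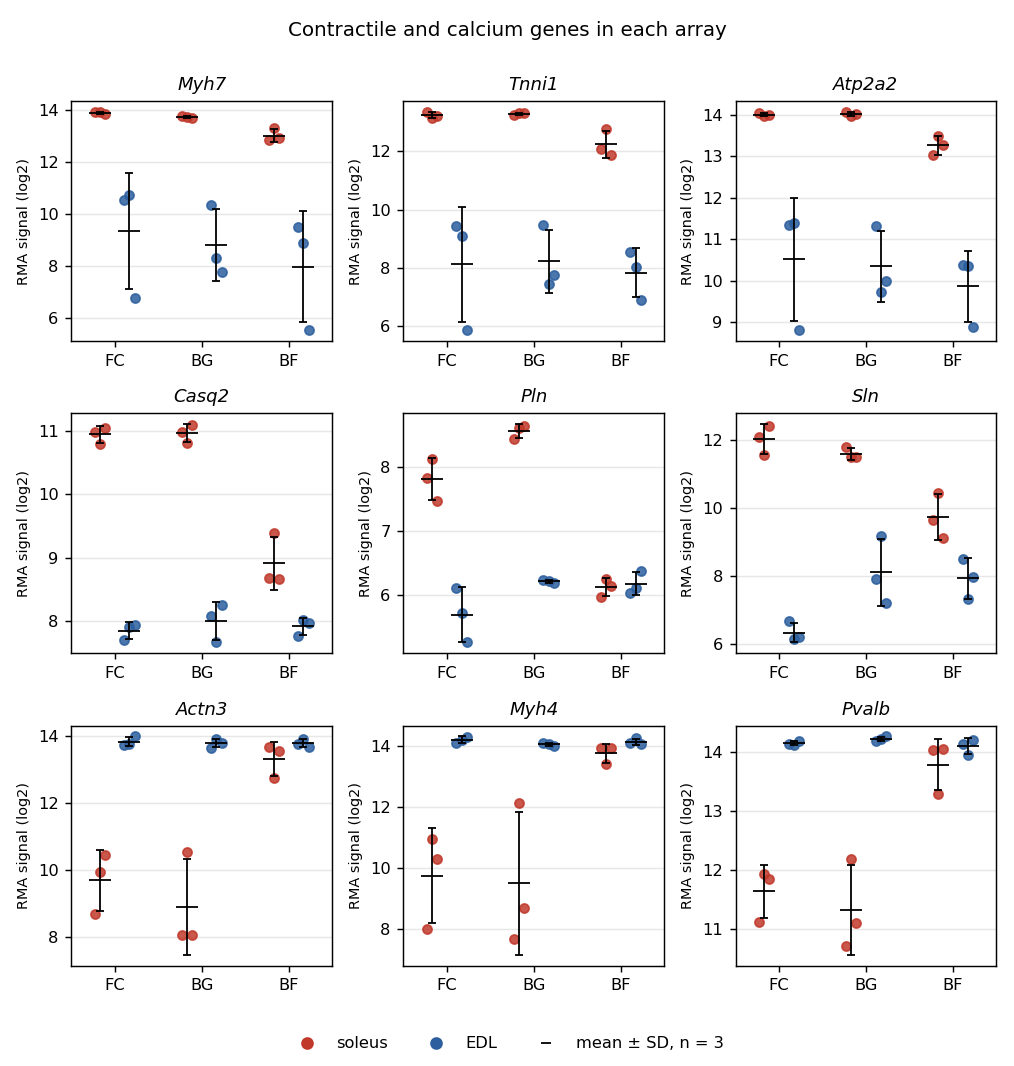
RMA signal (log2, y axis, scale set per gene) of 9 contractile and calcium genes in each of the 18 arrays, by condition (x axis), with soleus in red and EDL in blue and bars for the mean ± SD (n = 3). Myh7, Tnni1 and Atp2a2 stayed apart in BF, Casq2, Pln and Sln came down in BF soleus, and Actn3, Myh4 and Pvalb came up in BF soleus towards EDL. Every BF soleus array of Myh4 stayed below the BF EDL arrays, as did the lowest BF soleus array of Actn3 and of Pvalb.

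Of 5 slow and cardiac isoforms measured, 3 passed as higher in BF soleus and 2 were called, against 4 that passed in each ground group. Towards EDL, 2 passed in BF minus BG, against 5.04% of all genes, and 3 passed in BF minus FC (1.19%).

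Atp2a2, the slow calcium pump, measured 13.02, 13.48 and 13.28 in BF soleus and 10.38, 10.35 and 8.88 in BF EDL, a difference of 3.39 ± 0.54 (10.5-fold, adjusted p = 0.00195) beside 3.66 in BG and 3.49 in FC (BF minus BG -0.27 ± 0.77, adjusted p = 0.849). The 3 other probe sets of Atp2a2 also passed as higher in BF soleus, at 3.66, 2.23 and 1.58. For the last 2, BF minus BG passed as a smaller difference in flight (-1.25, adjusted p = 0.0424, and -1.34, adjusted p = 0.00758), so the probe sets disagree on whether the Atp2a2 difference shrank. Its regulator Pln measured 5.97, 6.25 and 6.15 in soleus and 6.04, 6.12 and 6.38 in EDL, 2 sets of values that overlapped. The Pln difference was -0.05 ± 0.18 in BF (adjusted p = 0.881), 2.35 in BG and 2.12 in FC, and BF minus BG was -2.41 ± 0.26 (adjusted p = 8.65e-05). In soleus Pln fell by 5.44-fold from BG to BF (adjusted p = 4.51e-07). The 2 other probe sets of Pln passed as higher in BF EDL (-0.65, adjusted p = 0.0021, and -0.69, adjusted p = 0.0216), and for both BF minus BG passed towards EDL (-1.95 and -2.46).

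Casq2, the slow calsequestrin that stores calcium, remained higher in soleus but by less. It measured 8.67, 9.39 and 8.66 against 7.76, 8.01 and 7.97 in BF, a difference of 0.99 ± 0.18 (adjusted p = 0.00341) beside 2.97 in BG and 3.10 in FC, with BF minus BG at -1.98 ± 0.25 (adjusted p = 0.000467). Sln, the pump inhibitor sarcolipin, differed by 1.81 in BF, 3.49 in BG and 5.69 in FC. It passed in BF minus FC (-3.88 ± 0.58, adjusted p = 0.00379) and not in BF minus BG (adjusted p = 0.0756), and its BF difference did not pass without BF SOL replicate 2, at 1.46 (adjusted p = 0.0721). Among 14 genes of fast calcium handling and excitation-contraction coupling 1 passed in BF: the scaffold protein Homer2 was higher in soleus by 1.26, less than the 2.95 of BG and the 2.52 of FC (both differences passed). The fast pump Atp2a1 and the release channel Ryr1 differed by -0.14 and -0.08. Among the other members, a dimmer probe set of Trdn passed as higher in BF EDL (-0.81, adjusted p = 0.0222). A dimmer one of Asph passed as higher in BF soleus (0.66, adjusted p = 0.0239).

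Of 7 developmental and cardiac contractile isoforms, Myh3 (embryonic myosin) lost its soleus excess. It measured 6.91, 6.51 and 5.96 in BF soleus and 7.38, 6.76 and 6.69 in BF EDL, and its difference was -0.48 in BF, 2.60 in BG and 2.51 in FC (BF minus BG adjusted p = 0.0016). Mybph, a myosin-binding protein, did the reverse: 9.30, 10.36 and 7.89 in BF soleus against 6.35, 7.36 and 6.55 in BF EDL gave 2.44, where BG had -2.0 and FC -0.26. The BF call of Mybph was lost without BF SOL replicate 2, at 1.85 (adjusted p = 0.217).

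Genes of fatty acid uptake and oxidation did not show in BF the soleus excess of both ground groups. Of 26 measured, 16 passed as higher in soleus in BG (8.3% of all genes) and 19 in FC (8%), and 0 in BF, where 1 passed as higher in EDL (background 5.79% higher and 6.63% lower). The median difference was -0.06 in BF, 0.56 in BG and 0.62 in FC. In BF minus BG 11 passed towards EDL and 0 towards soleus (background 5.04% and 4.21%), and in BF minus FC 6 and 0 (1.19% and 0.855%). With cyclic loess scaling 5 passed in BF minus BG and the BF median was 0.10.

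Fabp3, which carries fatty acids in the cytosol, measured 12.22, 12.32 and 12.66 in BF soleus and 12.54, 12.26 and 12.76 in BF EDL, so the groups overlapped. Its difference was -0.12 in BF, 0.91 in BG and 1.16 in FC, and BF minus BG was -1.03 ± 0.22 (adjusted p = 0.0123). The transporter Cd36 had -0.04, 1.06 and 1.08 in the same order, and the thiolase Acaa2 had -0.07, 1.0 and 1.21. Both passed in BF minus BG and in BF minus FC. Cpt2, which completes the entry of fatty acids into mitochondria, was the 1 member that passed as higher in EDL (-0.60 ± 0.18, adjusted p = 0.0431), and without BF SOL replicate 2 it did not, at -0.43 (adjusted p = 0.21). Ppara, the nuclear receptor that drives such genes, had -0.17 in BF, 1.26 in BG and 1.43 in FC (BF minus BG adjusted p = 0.0321).

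The tricarboxylic acid cycle and the respiratory chain were measured at more even levels in all conditions. Of 18 cycle genes 5 passed towards EDL in BF minus BG (background 5.04%), and of 64 genes of the respiratory chain and ATP synthase 2 did, a share below the background. The count of 2 was 7 without BF SOL replicate 3 and 8 when arrays were centred on their median. Idh2, the NADP-dependent mitochondrial isocitrate dehydrogenase, stood out among them: it measured 10.32, 10.62 and 10.47 in BF soleus and 10.07, 10.15 and 10.31 in BF EDL. Its difference was 0.30 ± 0.17 in BF (adjusted p = 0.26), 2.51 in BG and 2.28 in FC, and BF minus BG was -2.21 ± 0.23 (adjusted p = 8.57e-05).

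Glycolysis and glycogen metabolism moved the other way. Of 24 genes measured 16 passed as higher in EDL in BG and 17 in FC, but 4 in BF (background 6.63%), and 2 passed as higher in soleus. The median was -0.44 in BF, -0.87 in BG and -0.88 in FC. In BF minus BG 6 passed towards soleus and 2 towards EDL (background 4.21% and 5.04%). Without BF SOL replicate 2 the count towards soleus was 16, without replicate 1 it was 4, and with cyclic loess 10. The 4 higher in EDL in BF were 1 without replicate 2, 10 without replicate 1 and 7 without replicate 3.

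Gpd1, the cytosolic glycerol-3-phosphate dehydrogenase of fast muscle, measured 10.03, 8.28 and 9.42 in BF soleus and 9.88, 9.65 and 9.84 in BF EDL, and soleus replicate 2 was the lowest. Its difference was -0.55 in BF, -3.17 in BG and -2.71 in FC (BF minus BG 2.62 ± 0.46, adjusted p = 0.00445). Its mitochondrial partner Gpd2 had -0.58, -1.94 and -1.74, and the phosphorylase kinase subunit Phkg1 -1.24, -2.65 and -2.87, which was called in BF but fell below 2-fold without BF SOL replicate 2, at -0.81 (adjusted p = 0.00789). Fbp2, the muscle fructose bisphosphatase, had -0.30, -2.58 and -2.20, and the branching enzyme Gbe1 had -0.50, 1.41 and 0.38. Adpgk, an ADP-dependent glucokinase, was called as higher in BF soleus: 7.75, 8.75 and 6.88 in BF soleus against 5.86, 6.0 and 5.82 in BF EDL, a difference of 1.90 ± 0.28 with -0.05 in BG and -0.14 in FC.

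**Figure D3:**
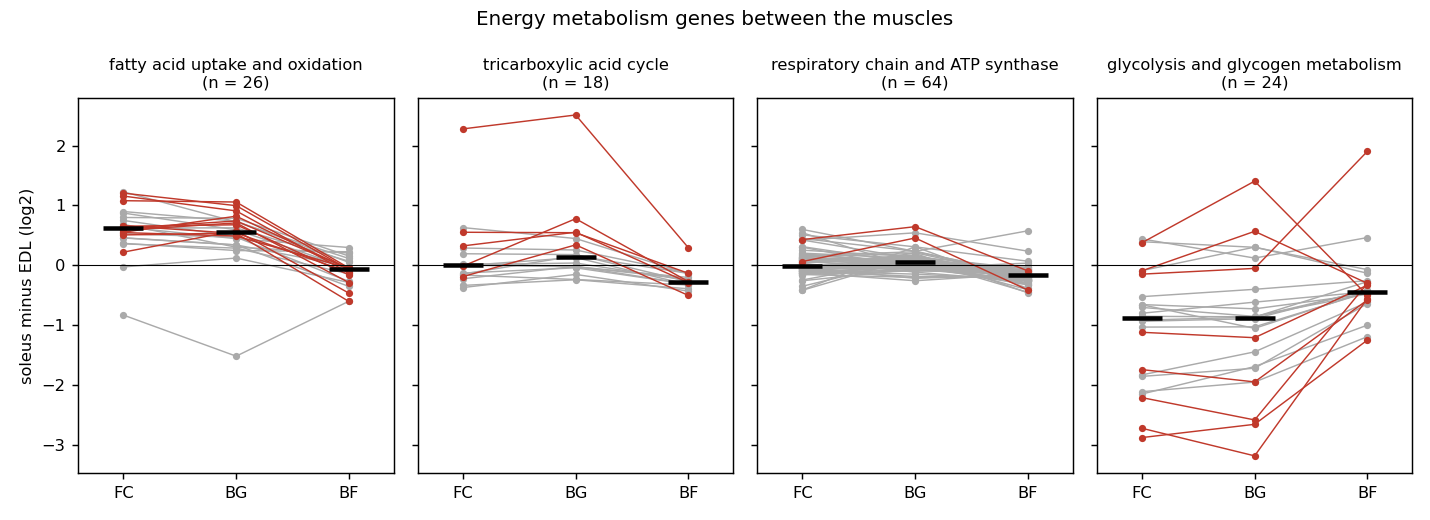
The log2 difference of soleus minus EDL (y axis) in FC, BG and BF (x axis) for each gene of 4 lists of energy metabolism, red where BF minus BG passed the adjusted p and grey otherwise, with the median as a black bar. The fatty acid genes fell to a median of -0.06 in BF, and the glycolysis genes drew in from a median of -0.87 in BG to -0.44.

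Alike in both ground groups, 292 genes were called in the same direction. In flown mice 77 of these were called the same way, 51 higher in soleus and 26 higher in EDL. Another 65 were not called in BF and had a difference that was smaller than in BG and than in FC, with both tests passed, 38 of them soleus genes and 27 EDL genes. For 149 neither was shown, and 1 was called in the opposite direction. The BG and FC values that chose the 292 also enter these tests, so the counts are a description. Without BF SOL replicate 2 the 77 became 47 and the 65 became 135, and without BF SOL replicate 1 they became 102 and 49.

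The gene that turned round was Abhd18, a protein of the hydrolase fold. It measured 4.67, 4.83 and 5.30 in BF soleus and 5.71, 6.45 and 5.65 in BF EDL, a difference of -1.0 ± 0.25 (adjusted p = 0.0177), against 1.87 in BG and 1.04 in FC. It lies at the 2-fold line in BF and did not pass without BF SOL replicate 2, at -0.95 (adjusted p = 0.0779).

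Among the genes that lost most of a ground difference were Dusp18, a dual-specificity phosphatase, with 0.49 in BF, 4.15 in BG and 2.74 in FC, the ligand Wnt4 with -0.42, -2.92 and -2.37, and the carbonyl reductase Cbr2 with -0.09, -2.39 and -2.74. Lgi1, a secreted neuronal protein, measured 4.85, 6.02 and 4.88 in BF soleus and 3.37, 3.29 and 3.65 in BF EDL and was still called, at 1.81 against 4.36 in BG and 4.13 in FC. Rcan2, a regulator of calcineurin, had 0.03, 1.59 and 1.31. Its relative Rcan1 remained higher in soleus, at 2.92, 1.55 and 1.37. A dimmer probe set of Rcan2 differed by 0.75 in BF (adjusted p = 0.0512), and its BF minus BG of -0.86 did not pass (adjusted p = 0.114).

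The EDL genes that remained were led by Tspan8, a tetraspanin of the cell surface. It measured 8.30, 6.34 and 9.28 in BF soleus and 10.23, 9.88 and 10.33 in BF EDL, so soleus spread over about 3 log2 units while EDL was tight. The difference was -2.17 ± 0.48 (adjusted p = 0.0103), the lowest among BF calls without overlap, and it was smaller than the -5.0 of BG (BF minus BG adjusted p = 0.0201). Ddit4l, an inhibitor of mTOR signalling, had -1.88, -2.88 and -2.42 in BF, BG and FC. The Wnt antagonists Dkk3 (-1.75, -2.89 and -2.06) and Wif1 (-1.84, -1.97 and -2.79) and the potassium channel Kcnc4 (-1.64, -2.81 and -2.84) belong to the same set. Wif1 and Kcnc4 did not pass without BF SOL replicate 2, and Tspan8 was then at -1.36 (adjusted p = 0.0286), above the Dkk3 value of -1.80 (adjusted p = 0.0263). The 3 dimmer probe sets of Tspan8 differed by -1.61, -1.49 and -0.69 in BF and did not pass in BF minus BG.

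Col1a1 and Fbxo32 were also called as higher in BF EDL, and for neither did the difference from BG pass. Col1a1, the main chain of type I collagen, measured 6.71, 6.74 and 7.45 in BF soleus and 10.48, 9.28 and 7.50 in BF EDL, where EDL replicate 3 was close to the soleus arrays. Its difference was -2.12 ± 0.50 (adjusted p = 0.0129), against 0.03 in BG and -0.34 in FC, and BF minus BG did not pass (adjusted p = 0.0615). Fbxo32, the muscle atrophy ubiquitin ligase atrogin-1, measured 11.38, 8.36 and 12.18 in BF soleus, with replicate 2 far below the other 2, and 12.33, 12.70 and 12.70 in BF EDL. Its difference in BG was -0.79, and BF minus BG did not pass (adjusted p = 0.386). The BF difference of -1.93 ± 0.59 (adjusted p = 0.0419) was not passed without that replicate, at -0.79 (adjusted p = 0.0652), and neither was that of Col1a1, at -2.01 (adjusted p = 0.0623).

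Heat shock proteins and co-chaperones, which keep proteins folded under stress, were for the most part higher in soleus in BF. Of 19 measured 15 passed as higher in BF soleus and 11 were called (background 5.79% and 1.86%), and 0 passed as higher in EDL, against 7 that passed in BG and 5 in FC. The median was 1.14 in BF, 0.56 in BG and 0.29 in FC. The larger excess itself was tested for each gene: 3 passed in BF minus BG towards soleus (background 4.21%) and 1 towards EDL (5.04%). In BF minus FC 1 passed, towards soleus (0.855%). The count of 15 was 9 without BF SOL replicate 2. The count of 3 was 0 without BF SOL replicate 1, 1 without replicate 2 and 11 without replicate 3. When limma was fitted on the 6 BF arrays alone 0 of the 19 passed, and 16 had an unadjusted p under 0.05, all higher in soleus.

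The start-site windows of 3 members are shown because they hold a copy of the heat shock element that binds the factor HSF1. Capitals mark GAANNTTC, on either strand, in the RefSeq GRCm38.p6 windows of Hspa1b (chr17:34959189-34959488, minus strand), Hspb8 (chr5:116422815-116423114, minus strand) and Hspb1 (chr5:135887669-135887968, plus strand).
Hspa1b: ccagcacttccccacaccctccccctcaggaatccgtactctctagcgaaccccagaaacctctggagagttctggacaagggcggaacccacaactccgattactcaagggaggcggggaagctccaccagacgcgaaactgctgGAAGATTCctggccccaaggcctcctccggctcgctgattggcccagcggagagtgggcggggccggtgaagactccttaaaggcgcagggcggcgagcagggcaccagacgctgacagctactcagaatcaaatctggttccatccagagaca
Hspb8: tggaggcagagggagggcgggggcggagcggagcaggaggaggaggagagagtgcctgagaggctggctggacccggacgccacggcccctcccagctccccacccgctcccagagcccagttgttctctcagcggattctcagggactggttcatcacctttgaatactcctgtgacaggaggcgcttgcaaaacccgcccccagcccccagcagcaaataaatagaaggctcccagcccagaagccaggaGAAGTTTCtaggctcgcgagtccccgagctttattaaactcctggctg
Hspb1: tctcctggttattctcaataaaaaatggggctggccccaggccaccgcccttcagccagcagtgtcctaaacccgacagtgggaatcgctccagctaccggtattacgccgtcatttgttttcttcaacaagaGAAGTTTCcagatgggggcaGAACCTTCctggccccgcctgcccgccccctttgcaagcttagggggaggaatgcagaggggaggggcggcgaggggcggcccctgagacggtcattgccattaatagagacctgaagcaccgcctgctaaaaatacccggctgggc

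Of 14 members with a window 9 held the element, against 7.96% of all windows: Hspb1 held 2 copies, and Hspb3, Hspb8, Hspa1a, Hspa1b, Hspe1, Dnaja1, Hsph1 and Bag3 held 1. Dnajb1, described next, held none in this window, which says nothing of sites elsewhere. The match is a description of the sequence.

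Hspb8, the small heat shock protein that works with Bag3, measured 13.13, 13.59 and 12.37 in BF soleus and 11.48, 11.64 and 11.28 in BF EDL, with no overlap. Its difference was 1.57 ± 0.21 (adjusted p = 0.00064) beside 0.38 in BG and -0.06 in FC, and it passed both in BF minus BG (1.19 ± 0.30, adjusted p = 0.0247) and in BF minus FC (1.63 ± 0.30, adjusted p = 0.0108). Dnajb1, the HSP40 that loads clients onto HSP70, measured 11.53, 12.40 and 8.23 in BF soleus and 7.78, 7.60 and 7.55 in BF EDL. Soleus replicate 3 stayed near the EDL level while the other 2 were over 3 log2 units above it. The difference was 3.08 ± 0.63 in BF, 0.04 in BG and 0.29 in FC, with adjusted p = 0.0414 in BF minus BG and 0.12 in BF minus FC. Without BF SOL replicate 2 BF minus BG did not pass, at 2.20 (adjusted p = 0.0651).

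The inducible HSP70 genes Hspa1a and Hspa1b had higher mean signals in soleus in every condition, and both passed in BF, Hspa1a alone passed in FC and neither passed in BG. Hspa1b measured 13.08, 13.42 and 11.33 in BF soleus and 8.59, 10.95 and 7.31 in BF EDL, and its difference was 3.66 in BF, 1.75 in BG and 2.41 in FC (BF minus BG adjusted p = 0.282). Hspa1a, a near-identical copy whose probes may share signal with it, had 4.26, 1.44 and 2.78. The BF difference of Hspa1b did not pass without BF SOL replicate 2, at 3.25 (adjusted p = 0.0559). Hspb1, the small heat shock protein HSP25, had 1.68, 0.56 and 1.41 and passed in BF minus BG. Without BF SOL replicate 2 it did not pass there, at 0.96 (adjusted p = 0.0519). Hsp90aa1, the inducible HSP90, had 1.92, 0.89 and 0.40. Hspb7, a small heat shock protein of slow and cardiac muscle, had 1.14, 1.90 and 2.12.

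Immediate early genes, which are transcribed within minutes of a stimulus, were also higher in flown soleus. Of 22 measured 15 passed as higher in BF soleus and 12 were called (background 5.79% and 1.86%), against 3 that passed as higher in soleus in each ground group, and 0 passed as higher in EDL in BF. In BF minus BG 3 passed towards soleus (background 4.21%), as did 3 in BF minus FC (0.855%). Without BF SOL replicate 2 the count of 15 was 8, and the 3 in BF minus BG were 10 without replicate 3. With limma on the 6 BF arrays alone 0 of the 22 passed and 15 had an unadjusted p under 0.05.

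Atf3, a stress-induced transcription factor, measured 12.68, 13.21 and 11.49 in BF soleus and 6.96, 10.18 and 5.92 in BF EDL, where replicate 2 was over 3 log2 units above the other EDL arrays. Its difference was 4.77 ± 0.89 (27.3-fold, adjusted p = 0.004), against 1.06 in BG and 2.33 in FC, and BF minus BG did not pass (adjusted p = 0.0696). Fos, a subunit of AP-1, measured 11.01, 11.78 and 9.46 against 7.85, 8.52 and 6.71 and had 3.06 in BF, 1.0 in BG and 0.92 in FC (BF minus BG adjusted p = 0.0716). Egr1, a zinc finger factor of the same class, had 3.03, 1.23 and 0.25.

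Myc, a driver of growth and ribosome production, was one of the 3 that passed against both ground groups. It measured 8.33, 9.01 and 6.89 in BF soleus and 6.14, 6.01 and 6.01 in BF EDL, a difference of 2.02 ± 0.35 with -0.13 in BG and -0.32 in FC (adjusted p = 0.0164 and 0.0203). Klf6 had 1.15, -0.11 and -0.06. Nr4a1, an orphan nuclear receptor higher in EDL on the ground, had 0.38, -1.43 and -1.61: its difference passed towards soleus in BF minus BG (adjusted p = 0.00437) while its BF difference did not pass (adjusted p = 0.292).

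**Figure D4:**
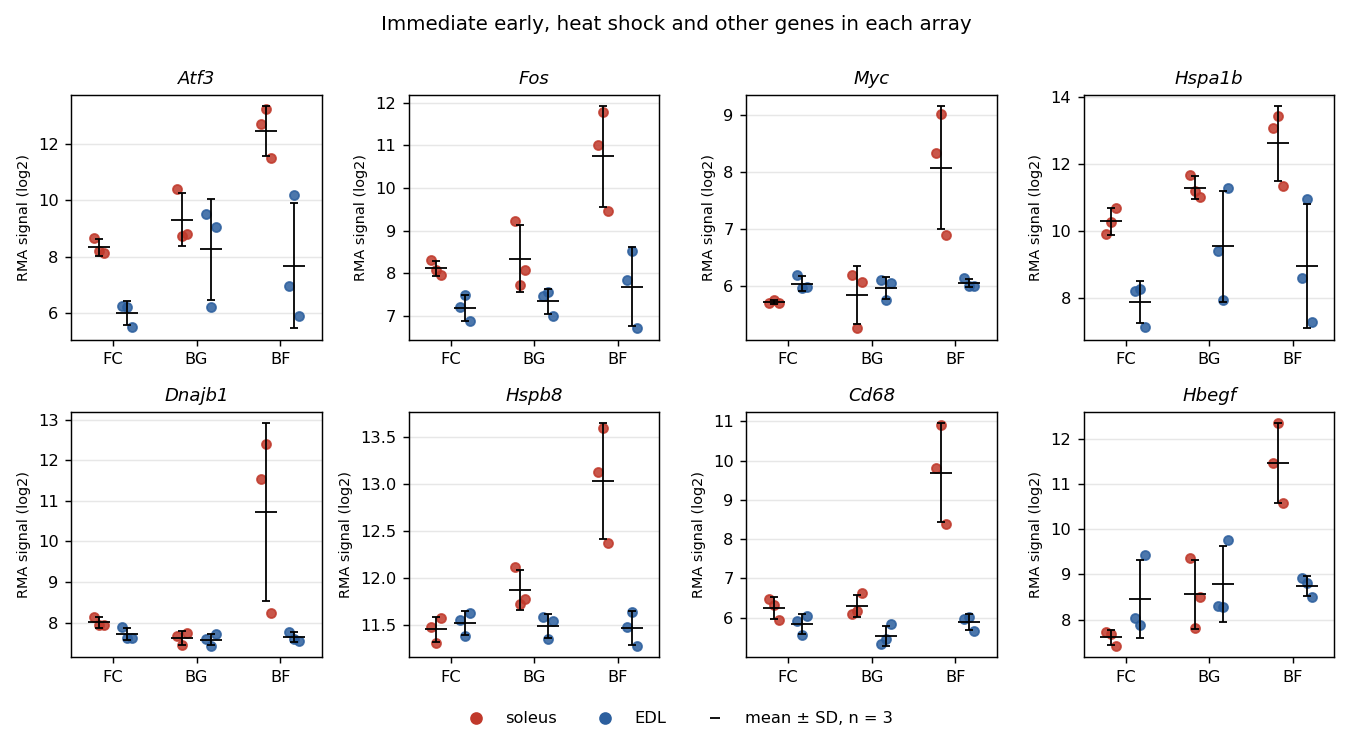
RMA signal (log2, y axis, scale set per gene) of 8 immediate early, heat shock and other genes in each of the 18 arrays, by condition (x axis), with soleus in red and EDL in blue and bars for the mean ± SD (n = 3). In BF soleus replicate 2 is the highest and replicate 3 the lowest array for each of these genes, and the 3 arrays lie above the BF EDL arrays.

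Proteins of the Z-disc, titin and the costamere carry force across the fibre. Of 21 measured 10 passed as higher in BF soleus and 5 were called (background 5.79% and 1.86%), with 0 higher in EDL. The count of 10 was 5 without BF SOL replicate 2. The ground groups were close to this: 9 passed as higher in soleus and 4 were called in BG (8.3% and 2.06%), and 7 and 5 in FC (8% and 1.62%). As higher in EDL, 2 passed in BG and 3 in FC. In BF minus BG 3 passed towards soleus and 2 towards EDL (4.21% and 5.04%), and in BF minus FC 2 and 0. With limma on the 6 BF arrays alone 0 passed and 12 had an unadjusted p under 0.05. Xirp1, an actin-binding protein of strained myotendinous regions, measured 12.99, 13.37 and 11.93 in BF soleus and 8.89, 10.87 and 8.10 in BF EDL, a difference of 3.47 with 1.71 in BG and 2.30 in FC. The actin cross-linker Flnc had 2.17, 0.86 and 1.27, which passed in BF minus BG (adjusted p = 0.0416). Without BF SOL replicate 2 BF minus BG of Flnc did not pass, at 0.99 (adjusted p = 0.073). Ankrd1, a stress-induced titin-binding protein, had 2.33, -0.47 and -0.07, did not pass in BF minus BG (adjusted p = 0.0529), and lost its BF call without BF SOL replicate 2, at 2.03 (adjusted p = 0.112). A dimmer probe set of Ankrd1 differed by 2.87 in BF and did pass in BF minus BG (3.28, adjusted p = 0.0467).

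Called in BF but in neither ground group were 173 genes, 143 higher in soleus and 30 higher in EDL. For 16 of them the difference also passed in BF minus BG and in BF minus FC, 13 towards soleus and 3 towards EDL. These 16 were named after their values were seen. Beside Hspb8, Myc, Klf6 and Adpgk, those higher in flown soleus were Cd68, Gm13889, Hbegf, Azin1, Dusp10, Mustn1, Fosl1, Epgn and Plk3. The 3 higher in flown EDL were Mterf2, a regulator of mitochondrial transcription (-1.43 in BF, 0.37 in BG and -0.01 in FC), the cystathionine lyase Cth (-1.16, 0.73 and 0.81) and Armh4 (-1.30, 0.33 and 0.48). The count of 16 was 7 without BG SOL replicate 3 and 133 without BF SOL replicate 3. Without BF SOL replicate 2 the BF difference of Cth did not pass, at -0.77 (adjusted p = 0.204), and Klf6 (0.87) and Plk3 (0.96) fell below 2-fold. Another probe set of Adpgk, Azin1, Fosl1, Gm13889, Hspb8 and Klf6 did not pass in BF minus BG. Those of Hbegf and Dusp10 passed, as did a further one of Hspb8 and of Klf6. For Gm13889 the other probe set differed by 0.15 in BF (adjusted p = 0.562).

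Cd68, a lysosomal protein best known from macrophages, measured 9.80, 10.90 and 8.38 in BF soleus and 5.98, 6.02 and 5.65 in BF EDL. Its difference was 3.81 ± 0.39 (14-fold, adjusted p = 0.000178), with 0.75 in BG and 0.41 in FC. With limma on the BF arrays alone it did not pass (adjusted p = 0.0546). Of 12 macrophage markers measured it was the 1 that passed, with a list median of 0.10 in BF. Hbegf, a ligand of the EGF receptor family, measured 11.47, 12.36 and 10.59 in BF soleus and 8.93, 8.81 and 8.50 in BF EDL, which gave 2.72 where BG had -0.22 and FC -0.85. Epgn, a second ligand of that family, had 1.27, -0.16 and 0.13. Azin1, which protects polyamine synthesis, had 2.42, 0.64 and 0.13, and Dusp10, a phosphatase of stress kinases, had 2.15, 0.34 and -0.18.

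Markers of other cells in the muscle were read in the same comparison. All 7 Schwann cell and nerve markers measured passed as higher in BF soleus (background 5.79%), with a median of 1.17 in BF, 0.10 in BG and 0.50 in FC, and their mean signal ran from 8.43 to 9.05 in the BF soleus arrays and from 7.25 to 8.0 in the BF EDL arrays. One of them, Egr2, is also an immediate early gene. Mbp, a myelin protein, differed by 1.59, 0.90 and 1.10. Dimmer probe sets of Mbp passed in BF at 1.81, 1.60, 1.53 and 0.95. Others did not, at 1.63 (adjusted p = 0.0617), 0.26 (0.179) and -0.12 (0.588). The other probe set of Egr2 did not pass either (0.88, adjusted p = 0.082), while that of Mal did (1.41). Without BF SOL replicate 2 the count of 7 markers was 1 of 7. In BF minus BG 1 of 7 passed towards soleus (background 4.21%), and in BF minus FC 0 passed by limma. With limma on the BF arrays alone 0 of 7 passed, and 7 had an unadjusted p under 0.05. Of 10 adipocyte markers 7 passed as higher in BF soleus (background 5.79%), and 6 without BF SOL replicate 2. Among them were Adipoq (2.54, 2.07 and 0.89), the lipid droplet protein Cidec (2.92, 1.25 and 0.79) and Lep (2.54, 0.58 and 0.42). The mean signal of the 10 ran from 8.17 to 8.97 in BF soleus and from 6.91 to 7.46 in BF EDL. Of these 10, 1 passed towards soleus and 1 towards EDL in BF minus BG (background 4.21% and 5.04%), and by limma 0 in BF minus FC. With limma on the BF arrays alone 0 of the 10 passed, and 8 had an unadjusted p under 0.05.

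Of 12 tendon and cartilage markers 1 passed in each direction, and by limma 0 of 11 endothelial, 8 neutrophil, 4 red blood cell and 9 epidermis markers passed, where 1, 1, 0 and 2 had an unadjusted p under 0.05. Their part in the muscle differences was not tested. In such whole-muscle RNA, fewer cells or fibres of a type and less RNA per cell cannot be told apart.

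**Figure D5:**
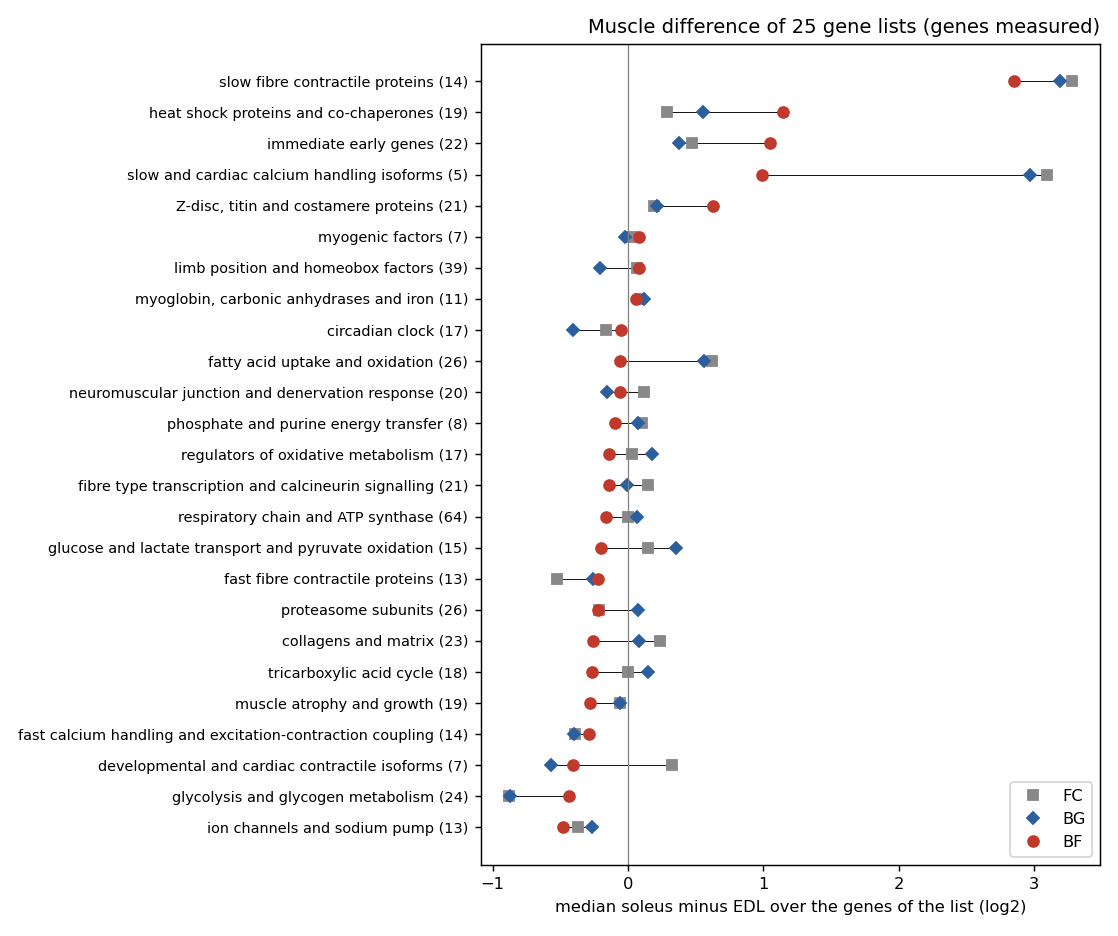
Median log2 difference of soleus minus EDL (x axis) over the measured genes of 25 lists (number in brackets, y axis), in FC (grey squares), BG (blue diamonds) and BF (red circles), ordered by the BF median. The slow contractile list was at 2.85 in BF, 3.19 in BG and 3.28 in FC, the slow calcium list at 0.99, 2.97 and 3.10, and the heat shock list at 1.14, 0.56 and 0.29.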

How the data were processed

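Total RNA of mouse soleus and EDL was amplified with the 3' IVT Express protocol and read on an Affymetrix mouse 430A 2.0 array. The deposited values are RMA signals on the log2 scale, which the authors made in Partek by background correction, quantile normalization over the arrays, log2 transformation and median polish. The 22690 probe sets span 2.11 to 14.53, with medians of 6.17 to 6.26 per array. Quantile normalization gives every array the same distribution, so a shift of all genes in 1 group cannot be seen, and signals of different genes were not compared. For arrays, it is their number (3 per group) that limits the precision.

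Apart from 64 controls, all 22626 probe sets were tested, with no filter. By the platform annotation 20380 of them name 1 gene, 691 several and 1555 none, and 20351 of the first matched a gene record by Entrez number, which gave 12393 symbols. A gene was read from the probe set naming it alone with the highest mean over the 18 arrays; 4956 genes have more than 1. Groups were taken from the titles; Bion M2 and M3 in 2 descriptions of BF EDL arrays were read as a slip for Bion M1. A model with 1 mean for each of 6 groups was fitted over 18 arrays with limma 3.58.1 in R 4.3.3 and moderated by empirical Bayes (residual degrees of freedom 12, prior 5.1), with Benjamini-Hochberg adjustment across the 22626 probe sets. Differences are means of 3 minus means of 3, with the model's SE. Tested on simulated data in which 200 of 22626 probe sets differed by 2.5-fold, the fit recovered 94% for BF soleus vs. EDL and 85.5% for BF minus BG. The simulation gave all groups the same spread and held no outlying array. It therefore does not show the recovery at the wider spread of flown soleus.

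The members, gene lists and marker lists (572 of 642 written genes measured) were chosen with earlier results of these data known. Genes were named by rule: all members of 4 contractile and calcium lists, the 12 highest and 12 lowest BF calls without overlap, the 8 highest and 8 lowest BF minus BG calls, up to 4 called members of each other list, genes called in opposite directions in BF and on the ground, and the 6 genes alike in BG and FC whose difference shrank most. Others are named as members of a list or after their values were seen. In all, 28 settings were tried, among them leaving out each of the 18 arrays. Tables were handled with pandas 2.3.3 and numpy 2.4.6 in Python 3.11.15 and drawn with matplotlib 3.10.9. Protein sequences were not used here, and promoter windows on chromosome 18 were left out.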

Additional observations from a re-analysis of the deposited data

Results flagged for a closer look

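The muscle difference of soleus minus EDL differed between BF and BG by a test of the difference itself (limma, adjusted p under 0.05, over 2-fold) for 370 genes, and between BF and FC for 169. Among the genes named here, 41 were called in both tests, which share the BF arrays; the BF minus BG value (log2) is given for each. Groups of 3 arrays are too small for a test of single outlying arrays.

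Genes with an EDL excess of more than 2-fold in BG and a value towards soleus in flight were Actn3 (4.44), Cbr2 (2.30), Gpd1 (2.62), Gpd2 (1.36), Myoz1 (1.13), Nr4a1 (1.81), Phkg1 (1.40), Pvalb (2.58), Slc2a3 (1.92) and Wnt4 (2.50). They include fast fibre genes (Actn3, Myoz1, Pvalb) and enzymes of glycogen and glycerol phosphate use (Gpd1, Gpd2, Phkg1). Towards soleus without such an excess in BG were Adpgk (1.95), Azin1 (1.78), Cd68 (3.06), Dusp10 (1.81), Epgn (1.43), Fosl1 (1.54), Gm13889 (2.51), Hbegf (2.95), Hspb8 (1.19), Klf6 (1.26), Mustn1 (1.70), Myc (2.15) and Plk3 (1.53).

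Genes with a soleus excess of more than 2-fold in BG and a value towards EDL in flight were Abhd18 (-2.87), Casq2 (-1.98), Cd36 (-1.10), Dusp18 (-3.66), Fzd9 (-2.27), Homer2 (-1.69), Idh2 (-2.21), Lgi1 (-2.55), Myh3 (-3.08), Pln (-2.41), Ppara (-1.43) and Rcan2 (-1.56), among them the slow calcium genes Casq2 and Pln, the embryonic myosin Myh3 and the isocitrate dehydrogenase Idh2. Towards EDL without such an excess in BG were Acaa2 (-1.06), Armh4 (-1.63), Cpt2 (-1.13), Cth (-1.89), Fabp3 (-1.03) and Mterf2 (-1.80).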

How the results depend on the processing

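No named gene called in BF or in BF minus BG changed sign under any setting run, but balances did. Of BF calls 75.99% were higher in soleus, and of genes that passed without a fold threshold 46.59%, and the shares of FC-chosen genes found in BF turned in order with it. With cyclic loess the BF median of the fatty acid list went from -0.06 to 0.10 and that of the respiratory chain from -0.16 to 0.00036. Counts moved by over 1.5 times as follows, and the cause was not tested unless the setting itself shows it. Without a fold threshold the BF counts were 717 and 822 (higher in soleus, higher in EDL), BF minus BG 522 and 625, BF minus FC 147 towards EDL, BG 2107 and FC 2033, with 1005 genes alike in BG and FC, 317 also alike in BF, 103 smaller in BF and 33 in BF alone. The shares of FC-chosen genes were then 19.76% (soleus) and 33.14% (EDL) alike in BF and 18.04% and 10.95% smaller, and of BG-chosen genes 18.97% alike (soleus) and 9.44% and 5.28% smaller. A fit with only the arrays compared has fewer degrees of freedom and takes the spread from those arrays alone. There BF had 14 and 0, BF minus BG 102 towards soleus and BF minus FC 54. In that fit 10 genes were alike in all 3 conditions and 1 in BF alone. Alike in BF were 5.37% and 0% of FC-chosen and 4.28% and 0% of BG-chosen genes. Of FC-chosen EDL genes 16.87% were smaller. In the same fit 6 fatty acid genes passed in BF minus BG. In BF 0 Z-disc, 0 heat shock and 0 immediate early genes passed. Without moderation BF had 48 higher in EDL, BF minus BG 83 and 124, BF minus FC 32 and 37, with 33 genes smaller in BF and 1 in BF alone; 9.09% and 8.70% of FC- and BG-chosen EDL genes were alike in BF, 14.29% and 8.21% were smaller, and 11.11% of BG-chosen soleus genes were smaller. With array weights, which were lowest for BF SOL replicate 2 (0.303), BF minus BG had 320 and 304, BF minus FC 245 and 159, with 159 genes smaller in BF and 95 in BF alone; 9.24% of FC-chosen EDL genes were alike in BF, and 55.15%, 57.43%, 37.55% and 55.50% were smaller (FC soleus, FC EDL, BG soleus, BG EDL). With cyclic loess 7 fast contractile genes passed in BF minus BG and 5 fatty acid genes.

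The replicate number was tried as a block. Arrays of one number correlated in their deviations from the group means at -0.02, 0.12 and 0.14 in BF, -0.05, 0.20 and 0.06 in BG and 0.37, 0.16 and 0.20 in FC, and not every array correlated best with its own number, so the numbers were not taken as pairs. With the block 314 genes were called in BF, 422 in BF minus BG and 219 in BF minus FC, and those in BF alone rose from 16 to 32.

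Leaving out 1 array at a time gave these ranges. BF calls ran from 113 to 374 (soleus) and 15 to 152 (EDL), BF minus BG from 97 to 336 and 134 to 238, BF minus FC from 44 to 226 and 55 to 113, BG from 446 to 532 and FC from 389 to 462. Genes alike in BG and FC ran from 260 to 298, those also alike in BF from 47 to 102, those smaller in BF from 49 to 135 and those in BF alone from 7 to 133. FC-chosen soleus genes ran from 22.66% to 33.33% alike in BF, 28.00% to 42.86% smaller and 63.50% to 72.13% alike in BG, and FC-chosen EDL genes from 3.35% to 26.05%, 15.97% to 51.88% and 57.99% to 66.51%. BG-chosen soleus genes ran from 22.09% to 34.88%, 15.48% to 26.36% and 46.48% to 57.66% (alike in FC), and BG-chosen EDL genes from 4.57% to 27.52%, 10.50% to 47.03% and 56.39% to 72.51%. Members passed ran from 8 to 13 (slow contractile), 3 to 5 (fast contractile, BF minus BG), 6 to 13 (fatty acid, BF minus BG), 5 to 11 (Z-disc), 9 to 17 (heat shock) and 8 to 15 (immediate early). Over all settings, 2094 of 2340 values of single genes called in BF and 1552 of 1830 of those called in BF minus BG stayed on their side of the threshold, and the others kept their direction. Of 102 other probe sets of 62 named genes, 20 lay on the other side of the adjusted p in BF and 26 in BF minus BG, and 8 had the opposite sign in BF. Dim probe sets and signals near the top of the scale limit how small or large a difference can be read.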

Other observations

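Of 39 limb position and homeobox factors, which carry the memory of where a muscle formed, 2 passed as higher in BF soleus and 6 as higher in BF EDL (background 5.79% and 6.63%). These counts were 0 and 3 without BF SOL replicate 2. Tbx15, a T-box factor of fast muscle, differed by -1.15 in BF, -1.18 in BG and -1.30 in FC, Hoxa11 by -0.69, -0.86 and -0.64, and Hoxa10 by -1.03, -0.54 and -0.53. Tbx1, a T-box factor of branchial and trunk muscle, was called in BF at -1.80, beside -1.58 in BG and -0.22 in FC. Of 26 proteasome subunits 5 passed towards EDL in BF minus BG (background 5.04%) and 0 in BF minus FC.

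Of 19 genes of muscle atrophy and growth, 1 passed as higher in BF soleus and 6 as higher in BF EDL (background 5.79% and 6.63%), and the 6 were 2 without BF SOL replicate 2. The first was Gabarapl1, an autophagy protein, with 1.28 in BF, 1.41 in BG and 1.46 in FC. Beside Fbxo32 those higher in EDL included the lysosomal protease Ctsl (-0.62, 0.29 and -0.05), the autophagy protein Map1lc3b (-0.62, -0.41 and -0.21) and the activin receptor Acvr2b (-1.03, -0.69 and -0.27). Ctsl also passed towards EDL in BF minus BG, as did Bnip3, a mitophagy protein (-0.03, 0.89 and 0.73).

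Of 7 myogenic factors, Myog (myogenin) measured 7.54, 8.45 and 6.83 in BF soleus and 5.94, 5.77 and 5.60 in BF EDL, a difference of 1.83 with 0.07 in BG and 0.58 in FC (BF minus BG adjusted p = 0.0129 in limma). Myod1 measured 8.95, 9.49 and 6.13 in BF soleus, with replicate 3 the lowest, and 7.24, 7.71 and 6.73 in BF EDL. Musk, the receptor kinase of the neuromuscular junction, was called in BF at 2.15, with 1.36 in BG and 0.66 in FC, while the acetylcholine receptor subunit Chrna1 had -0.21, 0.62 and 1.15. Of 17 circadian clock genes 1 passed in each direction, a share at the background: Nr1d1, a repressor of the clock, differed by 2.11 in BF, -0.13 in BG and 0.54 in FC, and Nr1d2 by -0.67, -0.41 and -0.36.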
